A study of Ovis aries with 44 samples.

Results

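Homozygous C/C lambs were compared with callipyge (+/Cpat) lambs in the semimembranosus, a large hind leg muscle, at 30 days of age. The comparison was chosen by genotype label alone and uses 5 lambs of the 22 in the series, 3 C/C lambs with the callipyge allele from both parents and 2 +/Cpat lambs with it from the sire alone. The remaining arrays at that age came from 2 normal (+/+) lambs and 3 Cmat/+ lambs, which carried the allele from the dam alone. A further 12 lambs, 2 +/Cpat and 2 +/+ at each of 10, 20 and 80 d, are used below to read the callipyge effect outside the 30 d arrays. All lambs at 30 d nursed ewes indoors until collection, and each array held total RNA of a single lamb. The RNA was hybridised to the bovine Affymetrix array, so sheep transcripts were read by probes of another species. The +/Cpat and +/+ arrays belonged to the paternal experiment of the study and the C/C and Cmat/+ arrays were added for the maternal experiment. The maternal C allele and the array experiment therefore cannot be told apart in C/C minus +/Cpat, nor in Cmat/+ minus +/+.

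The callipyge mutation lies in the DLK1-DIO3 imprinted domain. The domain expresses the protein-coding genes DLK1 and RTL1 from the paternal chromosome and the noncoding RNAs MEG3 and MEG8 from the maternal chromosome, and the mutation raises the genes of the chromosome that carries it. Hypertrophy appears in +/Cpat lambs, whereas C/C and Cmat/+ lambs are normally muscled, a mode of inheritance known as polar overdominance. A C/C lamb thus has the paternal mutation of a callipyge lamb together with the maternal one, and the question of the comparison is which transcripts differ when the maternal mutation is added.

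Levels are log2 RMA values as deposited, on which a difference of 1 is a 2-fold change. A difference is C/C minus +/Cpat, and a probe set was called at an adjusted p under 0.1 from limma over 24016 probe sets. The arrays had means of 5.67 to 5.68 and correlated at 0.9871 to 0.991 within C/C and 0.9931 within +/Cpat. The 12 markers of skeletal muscle fibres averaged 13.71 to 13.75 in the 5 arrays, beside a mean of 6.61 over the 9207 named genes in both groups. The labels give no sex. XIST, the noncoding RNA of the inactive X chromosome, was at 7.69 and 6.97 in the +/Cpat lambs. It was at 7.41, 7.99 and 5.40 in the C/C lambs. In lambs of the same age it was at 5.50 and 5.37 in the normal and 5.82, 7.96 and 5.31 in the Cmat/+ group. Both +/Cpat lambs thus lay above both normal lambs. The XIST level and the genotype therefore cannot be told apart in +/Cpat minus +/+ at this age. With the XIST level as a covariate, 14 of the 21 called probe sets remained called.

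Between C/C and callipyge muscle 21 probe sets were called, 0.0874% of those tested, 9 higher in C/C (0.0375%) and 12 lower (0.05%). They stood for 14 named genes and 4 probe sets without a name. MEG3, SEPHS2, TCEA3, CHRNE and DNAJB1 were higher in C/C lambs, and UCHL1, PARK7, METTL21E, CRABP2, ARL2BP, NDRG2, PCTP, NEK6 and MAP2K1 were lower. The differences ranged in size from 0.74 to 2.61, with a median of 1.26. At an unadjusted p under 0.05, 734 probe sets were higher (3.06%) and 750 lower (3.12%). In all 21 called probe sets the C/C and +/Cpat values did not overlap, which was also true of 22.6% of all probe sets in these 5 arrays. The count rests on few lambs. It was 8 when either +/Cpat lamb was left out, where the remaining array was assumed to vary like those of the other groups. It was 14, 11 and 9 when C/C lamb 1, 2 or 3 was left out, and 4 when the 5 arrays were fitted alone.

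**Figure D1:**
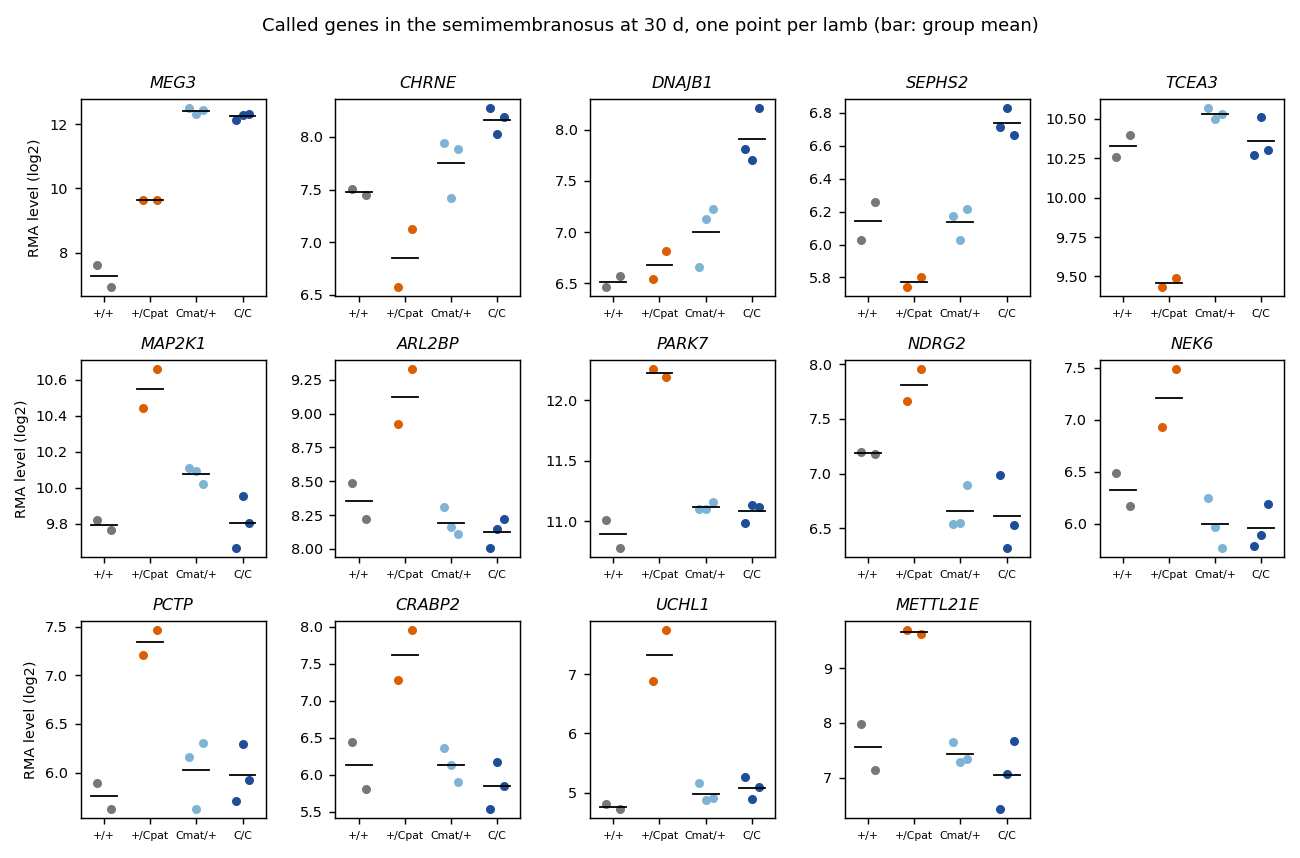
Level of the 14 named called genes in each of the 10 lambs at 30 d (y axis, log2 RMA, each panel with its own range; bars, genotype means), with the probe set of smallest p per gene. In the bottom 2 rows, 9 genes have both +/Cpat lambs above the 8 other lambs, while MEG3 is high in every lamb with a maternal C allele.

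MEG3, a noncoding RNA of the imprinted domain itself, had the largest difference of the called genes higher in C/C. Its brightest probe set was at 9.63 and 9.65 in the callipyge lambs and at 12.14, 12.27 and 12.31 in the C/C lambs. The difference was 2.59 ± 0.17 (SE, 95% interval 2.21 to 2.97), a 6.03-fold higher level with an adjusted p of 0.000266. The Cmat/+ lambs were at 12.50, 12.30 and 12.44 and the normal lambs at 7.62 and 6.94, so every lamb with a maternal C allele lay above every lamb without it. The normal lambs were in turn below the callipyge lambs. Further MEG3 probe sets differed by 2.04 and 1.495, and both were called. The remaining 2 of the 5 MEG3 probe sets differed by 0.28 and 0.18 and were not called.

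DLK1, which encodes a transmembrane protein related to Notch ligands, lay on the other side. Its brighter probe set was at 11.88 and 11.40 in the callipyge lambs and at 10.44, 9.70 and 10.39 in the C/C lambs. The groups did not overlap, but the difference of -1.46 ± 0.46 (SE) had an adjusted p of 0.537 and was not called. The normal lambs were lower still at 9.38 and 8.47, and the Cmat/+ lambs spread over 9.55, 9.21 and 11.02. The dimmer DLK1 probe set differed by -0.10. Of the other domain transcripts, the probe set annotated as MEG8 was at 3.04 and 3.16 in callipyge and 2.81, 3.07 and 3.22 in C/C lambs, which overlapped near the low end of the scale. A second one, which the study named CB439344 and assigned to MEG8, was at 3.04 and 3.12 against 3.22, 3.89 and 3.61, with an adjusted p of 0.673. For it the Cmat/+ lambs were at 3.71, 4.01 and 3.56 and the normal lambs at 3.19 and 3.02. By PCR the study reported this transcript higher in lambs with a maternal C allele. WDR25 and WARS1, neighbours of the domain, differed by 0.15 and -0.26 and were not called. RTL1 was not analysed here.

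In 11 of the 12 probe sets called lower in C/C muscle both callipyge lambs lay above all 8 other lambs, as they did in 3.07% of all probe sets, and the exception was a probe set without a name. The called probe sets already had both groups apart, so the count adds only the order against the normal and Cmat/+ lambs. Among all probe sets, both callipyge lambs lay above the 3 C/C lambs in 2389, and above all 8 other lambs in 738 of these. UCHL1, a deubiquitinating enzyme best known from neurons, was at 6.89 and 7.75 in callipyge and at 5.26, 4.89 and 5.09 in C/C lambs. This difference of -2.24 ± 0.22 had an adjusted p of 0.00397, and the normal and Cmat/+ lambs lay between 4.72 and 5.15. PARK7, which encodes the redox-sensitive protein DJ-1, was at 12.26 and 12.19 against 10.99, 11.14 and 11.12, a difference of -1.14 ± 0.11 with an adjusted p of 0.0041. Its normal and Cmat/+ values of 10.78 to 11.16 overlapped the C/C values. METTL21E, a muscle methyltransferase, had 2 probe sets, and both were called. The first was at 9.71 and 9.62 in callipyge and at 6.42, 7.07 and 7.67 in C/C lambs, a difference of -2.61 ± 0.32, and the second differed by -2.57 ± 0.36.

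The other lower genes differed by 0.74 to 1.77 in size. CRABP2, a carrier of retinoic acid, was at 7.28 and 7.96 in callipyge against 5.53, 6.17 and 5.85 in C/C lambs, a difference of -1.77. PCTP, a transfer protein for phosphatidylcholine, differed by -1.37 and NEK6, a mitotic kinase, by -1.26. MAP2K1, the kinase MEK1 that activates ERK, was at 10.44 and 10.66 against 9.66, 9.95 and 9.80, a difference of -0.74. MAP2K1 had the largest adjusted p of the called probe sets, 0.093, and lost its call when any of the 10 lambs was left out. Of these 10 fits, NEK6 kept its call in 1, DNAJB1 and NDRG2 in 2 and PCTP in 3. ARL2BP, which binds the small GTPase ARL2, differed by -1.001. The next probe set beyond the threshold, EIF4E3, differed by -0.81 with an adjusted p of 0.176.

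NDRG2 and 2 unnamed probe sets were low in every lamb with a maternal C allele. NDRG2, which is linked to cell differentiation and stress, was at 7.66 and 7.96 in callipyge and 7.20 and 7.18 in normal lambs, and at 6.98, 6.32 and 6.53 in C/C and 6.54, 6.54 and 6.89 in Cmat/+ lambs. The first unnamed probe set differed by -1.44 in C/C minus +/Cpat and by -1.24 in Cmat/+ minus +/+. The second differed by -0.93 and -0.72 in the same comparisons. For these 3 probe sets every lamb of the maternal experiment lay below every lamb of the paternal experiment at 30 d (0.82% of all probe sets). The called MEG3 probe sets lay above in the same way. On these arrays the allele and the array experiment therefore cannot be told apart for any of them. For MEG3 the study also reported a genotype effect by PCR in its maternal allele lambs, in the semimembranosus and the supraspinatus.

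Among the called genes higher in C/C muscle, SEPHS2, CHRNE and DNAJB1 were higher in the 3 C/C lambs than in the 7 others, an order found in 0.866% of all probe sets. Here too the called probe sets already had both groups apart. Among all probe sets, the C/C lambs lay above both callipyge lambs in 3031, and above all 7 others in 208 of these. SEPHS2, the synthetase of the selenium donor for selenoproteins, was at 5.74 and 5.80 in callipyge against 6.71, 6.83 and 6.66 in C/C lambs. The normal and Cmat/+ lambs lay at 6.03 to 6.26, between the groups, and the difference was 0.96 ± 0.12 with an adjusted p of 0.0246. CHRNE, the epsilon subunit of the adult acetylcholine receptor of the neuromuscular junction, was at 6.57 and 7.12 against 8.28, 8.03 and 8.19, a difference of 1.32. For CHRNE the normal and Cmat/+ lambs also lay between the groups, at 7.42 to 7.94. DNAJB1, a co-chaperone of HSP70, was at 6.55 and 6.82 against 7.81, 7.71 and 8.21, a difference of 1.23, and its second probe set differed by 0.92 with an adjusted p of 0.345. TCEA3, a transcription elongation factor of the TFIIS family, was at 9.43 and 9.49 against 10.27, 10.51 and 10.30. For TCEA3 the normal lambs at 10.26 and 10.40 and the Cmat/+ lambs at 10.50 to 10.57 were near the C/C lambs, and the callipyge lambs were the low group.

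By PCR in the semimembranosus the study reported a genotype effect for PARK7, for MEG3 and for METTL21E, which it lists as LOC513822. For METTL21E its PCR compared callipyge and normal lambs. For UCHL1 it reported none at the single age assayed, with callipyge and normal lambs. SEPHS2 was higher by PCR in C/C muscle only at 30 days, with no genotype effect over all ages, and TCEA3 had none. PCR primers that the study designed for 3 of these genes are printed here because they define which part of each transcript its PCR amplified. The study designed its assays to reach into the region that the array probe set represents. All are written 5′ to 3′ as the study lists them.
PARK7 forward: cgagtccgctgctgtga
PARK7 reverse: tgacttccgttcatcattttgt
UCHL1 forward: cagctgttctccttcggttct
UCHL1 reverse: gaatgcttcgccatcaca
SEPHS2 forward: tgcacattccaaggccagaa
SEPHS2 reverse: tcaattaatcccgtgccaagaaa

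The maternal allele was also examined on the paternal + chromosome, with arrays that share no lamb with C/C minus +/Cpat. In Cmat/+ minus +/+ 3 probe sets were called (0.0125%), all higher and all MEG3, with differences of 5.14, 2.69 and 1.60. Of the 21 probe sets called in C/C minus +/Cpat, 13 had the same sign in Cmat/+ minus +/+ and 7 of these had an unadjusted p under 0.05 there. Among all 24016 probe sets, 543 were higher and 682 lower at that p, 5.1% in either direction. METTL21E differed by -0.13 and 0.13 in the Cmat/+ lambs, CRABP2 by 0.0010, SEPHS2 by -0.0045 and CHRNE by 0.27.

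The difference between these contrasts, (C/C minus +/Cpat) minus (Cmat/+ minus +/+), was tested as an interaction, in which a constant shift between the array experiments cancels. It was called for 3 probe sets (0.0125%), and 757 had an unadjusted p under 0.05 (3.15%). For UCHL1 it was -2.45 ± 0.30 (SE) with an adjusted p of 0.0485, for PARK7 -1.37 ± 0.16 with an adjusted p of 0.0416, and for MEG3 -2.54 ± 0.25 with an adjusted p of 0.012, all from limma. UCHL1 and PARK7 differed by -2.24 and -1.14 on the callipyge background and by 0.22 and 0.23 on the normal one. MEG3 was higher with the maternal allele on both backgrounds and by more on the normal one. Of 21 alternative fits the MEG3 interaction stayed called in 17, and those of PARK7 and UCHL1 in 8. None was called with unmoderated variances or MAS5, and of the 10 fits without 1 lamb MEG3 kept its call in 10, PARK7 in 2 and UCHL1 in 3.

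**Figure D2:**
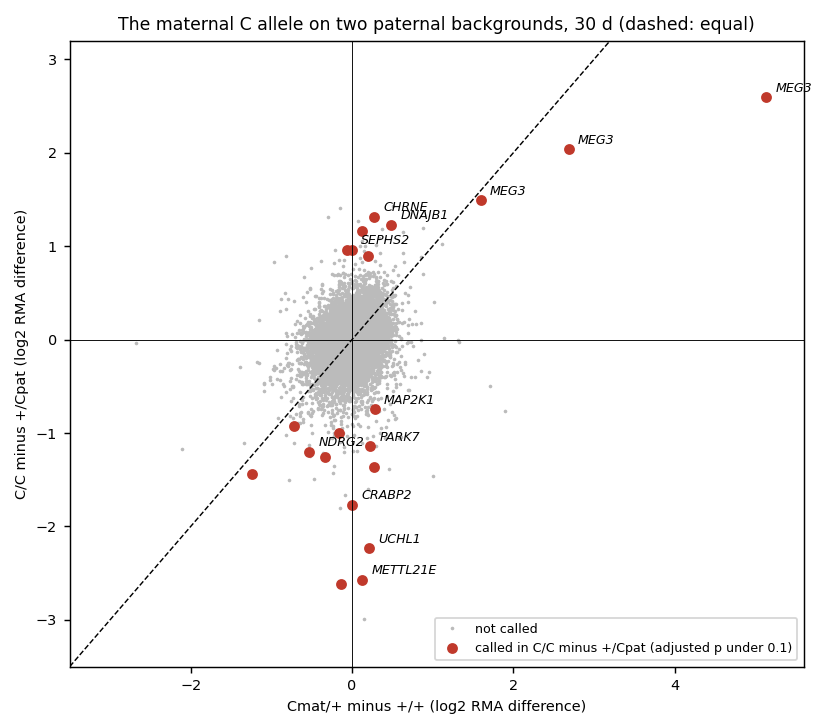
Log2 RMA difference of each of the 24016 probe sets in C/C minus +/Cpat (y axis) against Cmat/+ minus +/+ (x axis) at 30 d, with the 21 called probe sets in red and equality as a dashed line. MEG3 lies far right and above 0, while UCHL1, METTL21E, CRABP2 and PARK7 lie near 0 on the x axis and below 0 on the y axis.

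The study lists 26 probe sets of the callipyge effect that passed its PCR test, and it chose them on lambs of this series, so they are not independent evidence of a direction. In the 12 lambs of 10, 20 and 80 d, 17 of these were above 0 in +/Cpat minus +/+. Of those 17, 15 were below 0 in C/C minus +/Cpat, beside 46.6% of all probe sets, with a median of -0.77. Of the same 17, 3 were called lower (0.05% of all probe sets) and 1, MEG3, higher (0.0375%). The 9 others were all above 0 in C/C minus +/Cpat, beside 53.4% of all probe sets, with a median of 0.24, and none was called. SEPHS2, TCEA3 and PARK7 were chosen by the study from its comparisons of the 4 genotypes on these arrays, so their calls here are no separate evidence.

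Several genes with large differences stayed outside the threshold. SLC22A3, an organic cation transporter, was at 7.49 and 8.34 in callipyge and at 4.85, 4.96 and 4.95 in C/C lambs, a difference of -3.00 with an adjusted p of 0.24. PDE4D, which degrades cyclic AMP, was at 11.55 and 11.88 against 10.25, 10.55 and 10.60, a difference of -1.25 with an adjusted p of 0.439. RPS6KA3, a kinase activated by ERK, was at 9.46 and 9.85 against 8.04, 8.81 and 8.52, with an adjusted p of 0.234. The groups did not overlap for any of these genes, and the callipyge lambs were the high group. IGF2, an imprinted growth factor, was at 12.58 and 11.77 against 10.76, 10.77 and 11.39 for its probe set of smallest p, while 2 of its 4 probe sets differed by 0.13 and -0.01. VEGFA, the main angiogenic growth factor, was at 11.04 and 10.61 against 11.59, 11.50 and 11.96, a difference of 0.85 with an adjusted p of 0.234.

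The callipyge effect was next read from lambs that the 30 d comparison does not use. In +/Cpat minus +/+ over the 12 lambs of 10, 20 and 80 d, 414 probe sets were called (1.72%), 197 higher (0.82%) and 217 lower (0.904%). Of the 197 probe sets higher in callipyge muscle, 170 were below 0 in C/C minus +/Cpat at 30 d (86.3%, beside 46.6% of all probe sets). Their median was -0.34, 74 had an unadjusted p under 0.05 in the lower direction (37.6%, beside 3.12%), and 8 were called lower and 2, both MEG3, higher. Their mean level was 8.33 and 8.54 in the callipyge lambs and 7.96, 8.08 and 8.06 in the C/C lambs, which did not overlap. The normal lambs at 30 d were at 7.85 and 7.78, below every C/C lamb, and the median of C/C minus +/+ was 0.14 beside 0.54 for +/Cpat minus +/+. The Cmat/+ lambs, without a paternal C allele, were at 7.90, 7.87 and 8.14, also above both normal lambs. Their median in Cmat/+ minus +/+ was 0.083. Whether the paternal allele, the maternal allele or the array experiment has a part in the C/C shift from normal was not tested.

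Of the 217 probe sets lower in callipyge muscle, 150 were above 0 in C/C minus +/Cpat (69.1%, beside 53.4% of all). Their median was 0.13, 36 had an unadjusted p under 0.05 in the higher direction (16.6%, beside 3.06%), and 1, TCEA3, was called higher. Their mean level was 8.04 and 7.99 in callipyge and 8.15, 8.18 and 8.20 in C/C lambs, with the normal lambs above both at 8.28 and 8.30. The Cmat/+ lambs were also below both normal lambs, at 8.21, 8.16 and 8.18. The median was -0.087 in Cmat/+ minus +/+ and -0.106 in C/C minus +/+. The genotypes at 30 d shared no array with the choice of these probe sets, but +/Cpat lambs stand on one side of both comparisons.

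**Figure D3:**
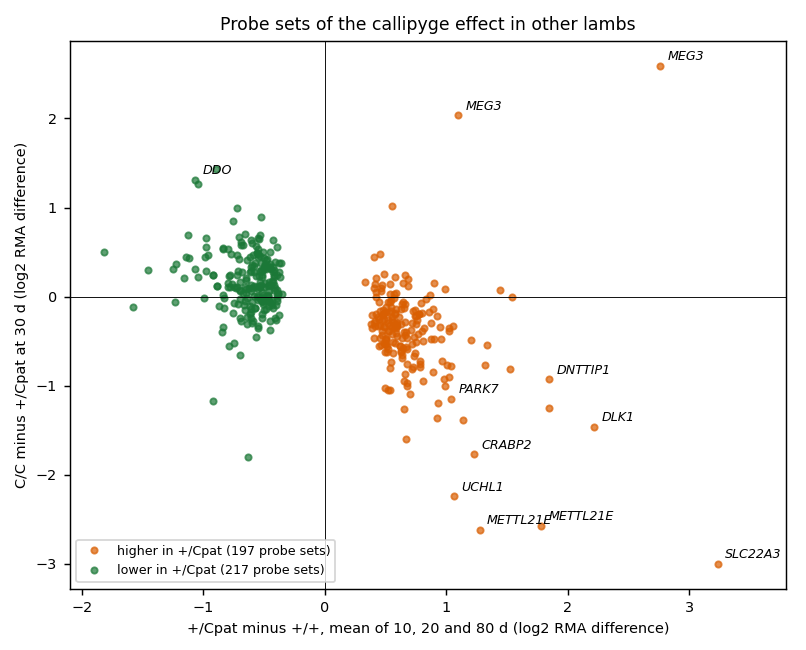
Difference C/C minus +/Cpat at 30 d (log2 RMA) for the 197 probe sets called higher and the 217 called lower in callipyge lambs of 10, 20 and 80 d. Most of the first set lie below 0 (170 of 197) and most of the second above 0 (150 of 217).

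Gene groups were described with 1 probe set per gene, beside the 9207 named genes, of which 4.51% had an unadjusted p under 0.05 higher in C/C and 3.93% lower. Of the 9207 genes, 4931 were above 0 and 4276 below. The group that stood highest was the cytosolic ribosomal proteins, the protein part of the ribosome. Of 50 measured, 49 were above 0, with a median of 0.37 (1.29-fold) beside 0.014 over all genes, and 41 had an unadjusted p under 0.05, all higher. None was called, and the smallest adjusted p was 0.234, for RPL11 at 10.84 and 10.60 in callipyge against 11.36, 11.47 and 11.23 in C/C lambs. The mean of the 50 genes was 11.49 and 11.32 in callipyge and 11.83, 11.85 and 11.66 in C/C lambs. The normal lambs were at 11.61 and 11.66 and the Cmat/+ lambs at 11.81, 11.73 and 11.81, so the callipyge lambs were lowest at this age. At the other ages the same genes had a median of -0.0395 in +/Cpat minus +/+, with 35 of 50 below 0 (4751 of all 9207 genes). Of these genes 2 were lower there at an unadjusted p under 0.05 (8.27% of all genes) and none was higher. The medians by age, youngest first, were -0.151, 0.0898 and -0.0705. The count of 41 was 11 without +/Cpat lamb 2 and 9 in the MAS5 values (2.53% of all genes), where 50 were above 0. In Cmat/+ minus +/+, 43 were above 0 with a median of 0.14, and 7 had an unadjusted p under 0.05 in the higher direction (2.74% of all genes). Whether the array experiment has a part in this was not tested.

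Genes of fatty acid oxidation and uptake also lay above 0. Of 34 measured, 27 were above 0 with a median of 0.19, and 9 had an unadjusted p under 0.05, all higher, with none called. Among them HADHA, a subunit of the mitochondrial trifunctional protein, was at 10.50 and 10.46 in callipyge and 11.45, 10.78 and 11.15 in C/C lambs. CPT1B, the muscle carnitine palmitoyltransferase, differed by 0.35 and ACAA2, the last enzyme of the cycle, by 0.58. In callipyge lambs of the other ages the same genes had a median of -0.31 in +/Cpat minus +/+, with 21 of 34 lower at an unadjusted p under 0.05 (8.27% of all genes). The count of 9 was 3 without +/Cpat lamb 2 and 5 in the MAS5 values.

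**Figure D4:**
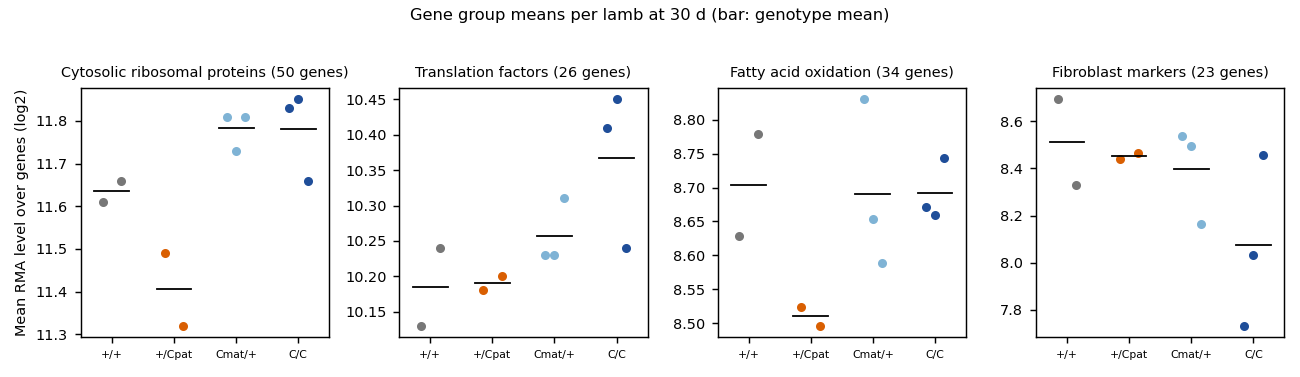
Mean level per lamb at 30 d (y axis, log2 RMA) of 4 gene groups, for +/+, +/Cpat, Cmat/+ and C/C lambs. The ribosomal protein mean is lowest in the +/Cpat lambs, at 11.32 and 11.49, and the connective tissue mean ranges from 7.73 to 8.46 among the C/C lambs.

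Other groups of metabolism and translation had smaller medians. Translation initiation and elongation factors had a median of 0.20, with 4 of 26 higher at an unadjusted p under 0.05 and none lower, among them EEF1B2 at 0.59. The medians were 0.12 for the TCA cycle, 0.076 for the electron transport chain and 0.060 for ATP synthase, with 1 of 20, 2 of 57 and 2 of 16 genes higher. Glycolysis had a median of -0.028 with 2 of 22 genes on each side. Slow-fibre contractile genes had a median of -0.014 and none of 15 had an unadjusted p under 0.05. At the other ages 12 of them were lower in callipyge lambs at that p. Fast-fibre contractile genes had a median of -0.12, with 10 of 12 below 0 (4276 of all 9207 genes) and 1 lower at that p. In 7 of the 12 every C/C lamb lay below both callipyge lambs (10.5% of all genes), and none was called.

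Of the sarcomere and Z-disc genes 17 of 23 were below 0, and of the calcium handling genes 13 of 17, beside 4276 of all 9207 genes. Their medians were -0.11 and -0.15. Of 23 sarcomere and Z-disc genes 5 were lower at an unadjusted p under 0.05 and none higher, among them PDLIM7, a Z-disc adaptor, at -0.53, TMOD1, which caps thin filaments, at -0.46, and FHL1 at -0.43. Of 17 calcium handling genes 3 were lower, ATP2B1, CALM3 and CAMK2D. None of these was called. Among 37 genes of oxidative stress defence and selenoproteins, PARK7 was called lower and SEPHS2 higher, and 6 were lower and 3 higher at an unadjusted p under 0.05. NQO1 at -0.82, GPX1 at -0.56 and TXN at -0.53 were among the lower ones and were not called.

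**Figure D5:**
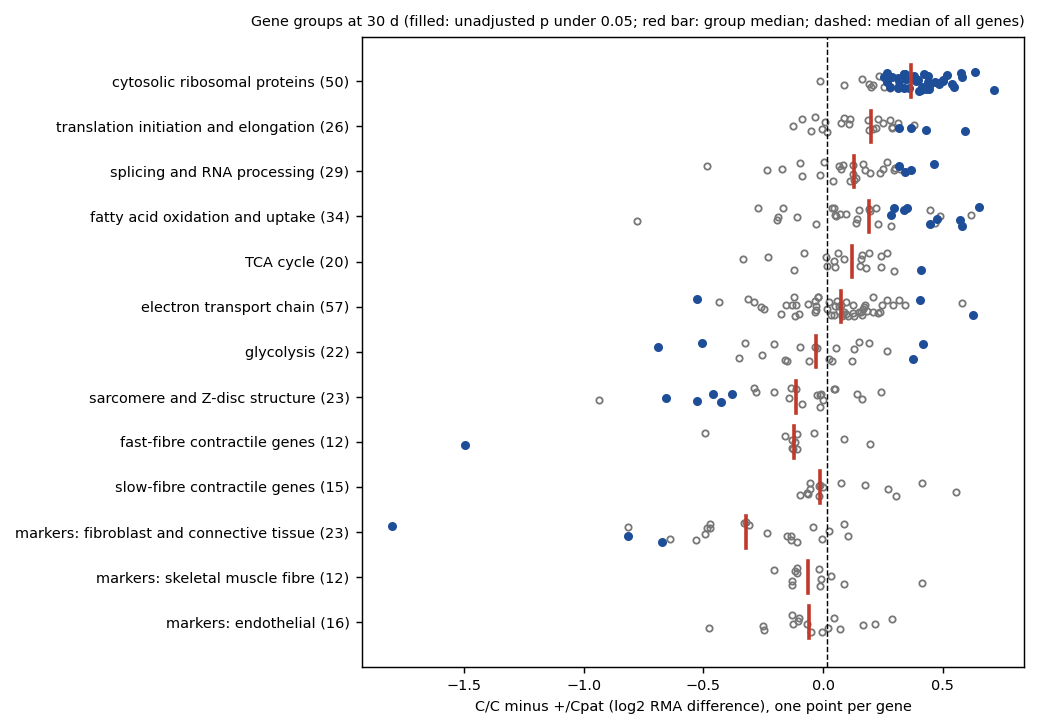
Difference C/C minus +/Cpat at 30 d (log2 RMA) of the measured genes in 13 gene groups, with the median of each. The 50 ribosomal proteins lie almost wholly above 0, with a median of 0.37.

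Markers of other cell types were read in the same bulk tissue, in which fewer cells of a type and less RNA per cell cannot be told apart. Of 23 fibroblast and connective tissue markers, 20 were below 0 in C/C minus +/Cpat with a median of -0.32, 3 had an unadjusted p under 0.05 and none was called. POSTN, a matrix protein, was at 6.54 and 6.53 in callipyge and at 3.40, 5.13 and 5.68 in C/C lambs. The mean of the markers was 8.44 and 8.47 in callipyge and 7.73, 8.03 and 8.46 in C/C lambs, which overlapped. Without C/C lamb 1, the lowest, the median was -0.17 with 1 gene at that p, and without C/C lamb 3 it was -0.45 with 12. The part of these markers in the other results was not tested. None of the 16 endothelial, 11 smooth muscle or 18 leukocyte markers measured had an unadjusted p under 0.05. Nor had any of the 7 Schwann cell and nerve or 4 satellite cell markers, and all 4 satellite cell markers were below 0 (4276 of all 9207 genes). Of 16 adipocyte and 6 erythroid markers, 1 of each group was higher at that p (4.51% of all genes), and none was called.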

How the data were processed

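Semimembranosus RNA from 22 lambs was hybridised to bovine Affymetrix arrays. The authors deposited each array as log2 RMA values and as MAS5 signal intensities. The submitters' notes name MAS5, GCOS and RMA without versions, and the sources do not state which arrays shared an RMA run. The deposited intensity values were scaled and put on the log2 scale after an offset of 16 for use as a check. The 112 control probe sets were left out and 24016 were tested. Genes were named from the platform annotation, 13292 probe sets having 1 symbol, 86 several and 10638 none, and 73 were named from the study.

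A mean per genotype was fitted to the 10 RMA arrays at 30 d with limma 3.58.1 in R 4.3.3, with moderated variances (residual df 6, prior df 5.03), and p-values were Benjamini-Hochberg adjusted over all probe sets. Errors are SE of the fit. The labels do not say how the lambs were related, and p-values measure the spread between these lambs. Named genes were those of the study's lists and the imprinted domain, the 15 smallest p in each direction, the 10 largest differences without overlap in each direction, up to 4 per gene group and the 5 smallest interaction p, and other list members named were chosen after their values were seen. Gene groups and members were chosen with earlier results of these data known. Alternatives were MAS5, other variance models, other sets of arrays, leaving out each lamb and a replicate block, and XIST as a covariate was added after seeing the data. The procedure was tested on simulated data.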

Additional observations from a re-analysis of the deposited data

Results flagged for a closer look

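For 3 probe sets the effect of the maternal allele differed between the callipyge and the normal background by the interaction test of limma. The interaction was -2.54 for MEG3 (adjusted p 0.012), where C/C minus +/Cpat was 2.59 and Cmat/+ minus +/+ was 5.14. It was -1.37 for PARK7 (adjusted p 0.0416), where the differences were -1.14 and 0.23. It was -2.45 for UCHL1 (adjusted p 0.0485), where they were -2.24 and 0.22. Of 21 alternative fits the MEG3 call stayed in 17 (adjusted p 0.000812 to 0.508), that of PARK7 in 8 (0.0133 to 0.779) and that of UCHL1 in 8 (0.00583 to 1), and none stayed with MAS5 or unmoderated variances. The calls of PARK7 and UCHL1 also ended with the replicate block and XIST, those of MEG3 and UCHL1 with all 22 arrays, and those of PARK7 and UCHL1 in 8 and 7 of the 10 fits without 1 lamb.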

How the results depend on the processing

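All 21 called probe sets kept their direction under the 22 alternatives, which gave 462 values, of which 271 stayed past the threshold and 191 did not. MEG3 (brightest probe set) stayed called in all 22, and it, a second MEG3 probe set, UCHL1 and PARK7 did so whichever lamb was left out. The counts called higher and lower, 9 and 12, were 3 and 1 with unmoderated variances, 2 and 2 from the 5 arrays alone, 1 and 0 with MAS5 and with MAS5 quantile normalized (577 and 593 lower at an unadjusted p under 0.05), 8 and 17 with all 22 arrays, 9 and 17 with array weights, 7 and 7 at an adjusted p under 0.05, and 7 and 7 with XIST as a covariate, an alternative chosen after seeing the data. Leaving out a lamb gave 2 to 9 higher and 5 to 12 lower. The cause of these changes was not tested.

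Same-numbered lambs had deviations that correlated at -0.259 to 0.197, so the numbers were not taken to pair them. With the replicate block 2 were called higher and 3 lower. The interaction, 3 lower, was 1 with the replicate block, with all 22 arrays and with XIST, 0 with unmoderated variances and both MAS5 settings, and 1 to 4 when a lamb was left out, with 0 to 1 higher. It could not be fitted on the 5 arrays alone.

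The fatty acid oxidation median was 0.159 to 0.256 when a lamb was left out. The median of the probe sets higher in callipyge lambs was -0.453 to -0.211, the weaker value without +/Cpat lamb 2. That of the lower ones was 0.124 to 0.189, 0.226 with MAS5 and 0.236 when chosen at an adjusted p under 0.05. Small uncalled differences changed sign. MAPK6 (0.072) was -0.195 with the replicate block, -0.0534 with XIST and -0.234 to 0.436 when a lamb was left out. MEG8 was 0.182 with MAS5, 0.171 quantile normalized and -0.157 to 0.0469 when a lamb was left out. TXNIP was -0.031 with RMA quantile normalized again and -0.0363 to 0.114 when a lamb was left out. Such ranges were -0.0878 to 0.58 for BHLHE41, -0.00926 to 0.246 for CDO1 and -0.739 to 0.218 for WARS1. The number of arrays limits the precision.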
